A study of Mus musculus with 12 samples.

Results

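Livers of adult male mouse offspring whose dams had eaten an obesogenic diet were compared with livers of offspring of control-fed dams, when all of the offspring had themselves eaten only control chow since weaning. The comparison takes the 3 libraries named OC (obesogenic dam, control offspring) and the 3 named CC (control dam, control offspring), which are 6 of the 11 libraries in the table, and it covers all 12086 genes listed there. The mice were wild type C57BL/6 males killed in a fasted state at postnatal day 84 (12 weeks). The CC dams ate RM1 chow with 7% simple carbohydrates and 3% lipids, and the OC dams ate a diet with 10% simple carbohydrates and 20% lipids plus sweetened condensed milk with 55% simple carbohydrates, 8% lipids and 8% protein. In both groups litters were brought to 6 pups on postnatal day 3, the dams kept their diet until weaning on day 21, and the offspring then ate RM1. The offspring of each dam diet thus differ in what the dam ate before and during pregnancy and lactation, and these periods cannot be told apart. The groups CO and OO, with 2 and 3 libraries, hold offspring weaned onto the obesogenic diet from control and obesogenic dams. Their values are set beside those of OC and CC below. They also enter the fit, so the SE, interval and p-value of each OC minus CC difference rest partly on their spread. The litter of each animal was not given in the labels used here, so p-values measure the spread between these libraries, which may include littermates.

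The liver makes glucose, cholesterol, urea and most plasma proteins, and adjusts the genes for these tasks to feeding, insulin and the sterol content of its membranes. Cholesterol synthesis is governed by SREBP2, a membrane-bound transcription factor that is released and travels to the nucleus when sterols in the endoplasmic reticulum are low, and it drives the genes of the mevalonate pathway together with the LDL receptor. Urea synthesis and gluconeogenesis are carried out mainly by hepatocytes near the portal vein and increase in fasting, when amino acids are broken down for glucose.

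Values are scaled counts, and the differences below are OC minus CC on a scale of log2(value + 0.5), where 1 stands for a 2-fold difference. The 6 libraries rest on 5419975 to 7969056 recovered reads each, and 3 reads were worth 0.352 to 0.561. Hepatocyte markers were abundant in every library, with 9 of 10 measured and a summed value of 55598 to 57279.7 in CC and 45167 to 61771 in OC. Some libraries stood apart within their group. Exocrine pancreas transcripts summed to 7.46 to 1041 in CC and 27.2 to 7014 in OC, with the high values in CC.1 and OC.0, and Pnlip, pancreatic lipase, stood at 1.11, 162 and 0.138 in the CC libraries and 1111, 3.35 and 14.2 in the OC libraries. Among these 6 libraries the acute phase genes were high in OC.1 alone. Saa1, a serum amyloid of inflammation, had values of 25.7, 21.3 and 36.1 in the CC libraries and 65.2, 3415 and 14.4 in the OC libraries, and its near-identical relative Saa2 stood at 22.8, 14.96 and 25.6 in the CC libraries and 84.7, 4025 and 11.2 in the OC libraries. Skeletal muscle markers were highest in CC.0. The part of these transcripts in the results below was not tested beyond the values without those libraries. In whole tissue, fewer cells of a type and less RNA per cell cannot be told apart.

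**Figure D1:**
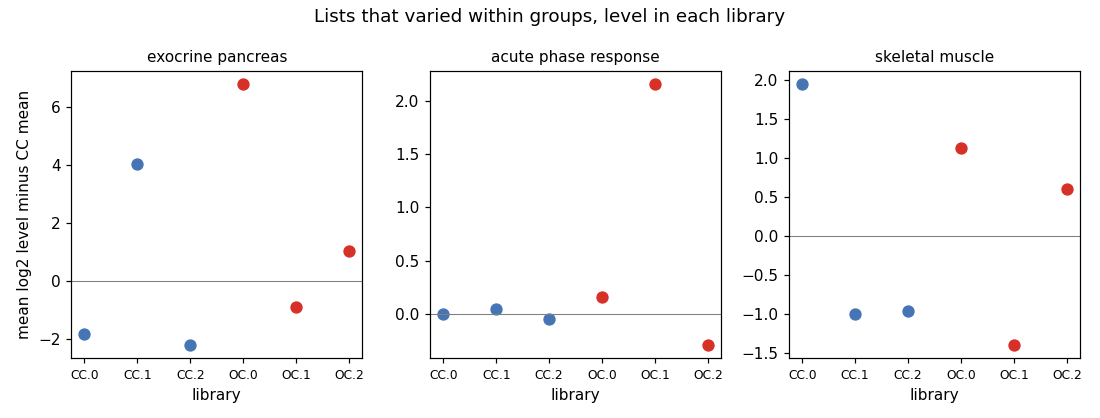
Mean log2(value + 0.5) of the members of 3 gene lists in each library, minus the CC mean. The pancreas list was high in OC.0 (6.78) and CC.1 (4.01), acute phase genes in OC.1 (2.16), and muscle markers in CC.0 (1.96).

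No single gene passed the test between OC and CC. Of 12086 genes, 0 (0%) had a limma adjusted p under 0.05, and the smallest adjusted p was 0.923. At an unadjusted p under 0.05 there were 636 genes, with 604 expected by chance, 305 of them (2.52% of all genes) higher and 331 (2.74%) lower in OC. By edgeR's quasi-likelihood test, limma's voom and DESeq2 on the recovered reads, 0 genes were also called, with 676, 695 and 458 at an unadjusted p under 0.05. The smallest adjusted p depended on the tool, with 0.875 by edgeR, 0.848 by voom and 0.125 by DESeq2. The limma count of 636 became 1015 without CC.1, 332 without CC.0 and 358 without CC.2. It was 706 with only the CC and OC libraries in the fit. Without both pancreas-high libraries, CC.1 and OC.0, it was 891, with 0 genes called and a smallest limma adjusted p of 0.122. The groups did not overlap for 643 genes higher in OC (5.32%) and 742 lower (6.14%). The median difference over all genes was 0.0033, and 50.7% lay above 0. Differences between a CC and an OC library were about as large as those within a group. The median absolute log2 difference over genes was 0.184 to 0.253 for the 9 mixed pairs, 0.174 to 0.225 for the 3 CC pairs and 0.203 to 0.257 for the 3 OC pairs. The half-width of a gene's 95% interval had a median of 0.40, and for 10730 genes (88.8%) the whole interval lay within a 2-fold difference either way. For those genes a difference of 2-fold or more lies outside the interval, and smaller ones may lie inside it. Fitted differences over 2-fold were found for 55 genes higher and 13 lower in OC. Of the 55, 16 were the pancreas markers, 9 were cholesterol synthesis genes and 5 were acute phase genes, and the groups did not overlap for 15 of the 55 and 4 of the 13. Leaving out CC.1 gave 2 calls. Col27a1, a fibrillar collagen gene, then had a difference of 1.498 (limma adjusted p = 0.0228), and Hectd2os, a transcript from the Hectd2 locus, had 1.28 (adjusted p = 0.0305). Hectd2os was named after its values were seen, and with CC.1, where it stood at 43.9, its difference was 0.55. None of the genes below passed the test in the full comparison, so each is given by its values.

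Of the 15 genes named as lower in OC, the smallest p belonged to Retreg1 (ENSMUSG00000022270), a receptor that hands stretches of endoplasmic reticulum to autophagy. It stood at 152, 116 and 123 in the CC libraries and 75.0, 77.6 and 79.7 in the OC libraries. Every OC library lay below every CC library, which was a condition for naming any of these genes. The log2 difference was -0.74 (SE 0.15, 95% interval -1.06 to -0.41, unadjusted p = 0.000331). Heatr1, which is needed for transcription and processing of ribosomal RNA, stood at 41.8, 38.1 and 43.0 in the CC libraries and 26.8, 31.2 and 24.8 in the OC libraries, with a difference of -0.57 (SE 0.12, unadjusted p = 0.000448). Eif4ebp3, a repressor of cap-dependent translation, had the largest difference of the 15, -2.07 (SE 0.56, 95% interval -3.29 to -0.86, unadjusted p = 0.00301). Its values were 169.7, 44.6 and 186 in the CC libraries and 21.0, 41.1 and 21.0 in the OC libraries, so CC.1 lay close to the OC libraries and far from the other CC libraries. Zbed5, a zinc finger gene at low level, stood at 6.34, 6.36 and 8.84 in the CC libraries and 3.88, 1.52 and 3.38 in the OC libraries. Klhdc2, a substrate receptor of a ubiquitin ligase, stood at 45.2, 42.1 and 46.4 in the CC libraries and 32.1, 30.1 and 30.7 in the OC libraries. Nkiras1, a small GTPase-like inhibitor of NF-kappaB, stood at 25.2, 23.9 and 24.3 in the CC libraries and 18.4, 18.2 and 18.5 in the OC libraries, and its difference was -0.40. Plscr1, a phospholipid scramblase, stood at 15.4, 12.2 and 14.4 in the CC libraries and 6.93, 8.21 and 8.22 in the OC libraries. U2af1, the splicing factor that reads the end of an intron, differed by -0.52, and the zinc finger gene Zfp691 by -0.62. Znhit6 helps to assemble small nucleolar ribonucleoproteins and differed by -0.85, Mybbp1a is a nucleolar protein and differed by -0.48, and the mitochondrial ribosomal protein genes Mrps2 and Mrps33 differed by -0.52 and -0.69. Rps4l, a relative of ribosomal protein S4, differed by -0.69 and may share reads with its close copies. The mitochondrial gene mt-Nd1 is described with its genome below.

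Of the 15 genes named as higher in OC, Sp140 (ENSMUSG00000070031), a chromatin reader of immune cells, had the smallest p. It stood at the low values of 3.65, 2.80 and 2.90 in the CC libraries and 5.87, 5.78 and 5.28 in the OC libraries, a difference of 0.77 (SE 0.18, unadjusted p = 0.00122). Pfkl, the liver form of phosphofructokinase and a control point of glycolysis, stood at 22.8, 27.5 and 26.8 in the CC libraries and 37.4, 35.6 and 36.6 in the OC libraries. Groups without overlap were a condition for naming these genes as well. For Pfkl the difference was 0.50 (SE 0.12, 95% interval 0.24 to 0.76, unadjusted p = 0.00136). Tsku, a secreted protein of the liver, stood at 59.9, 42.4 and 69.0 in the CC libraries and 78.1, 138 and 124 in the OC libraries, with a difference of 0.97 (SE 0.25, unadjusted p = 0.00201). Aox1, an aldehyde oxidase that clears drugs and retinaldehyde, stood at 135, 162 and 102 in the CC libraries and 239.7, 194 and 226 in the OC libraries. Col27a1 stood at 11.6, 26.4 and 10.5 in the CC libraries and 34.8, 31.0 and 30.5 in the OC libraries, with CC.1 again nearer to the OC libraries. Other genes of matrix and cytoskeleton in the list were P4ha2, a collagen prolyl hydroxylase, with 0.68, Sned1, a matrix protein, with 0.58, and Flna, the actin crosslinker filamin A, with 0.42. Colec11, a soluble lectin of innate immunity, differed by 0.49, the anion exchanger Slc4a2 by 0.43 and the small GTPase Rap2a by 0.62. The RNA-binding protein gene Pcbp4, the membrane protein gene Tmc6 and Wdyhv1, an amidase of the N-degron pathway, differed by 0.64, 0.71 and 0.76. The limma adjusted p was 0.923 for each of the 30 genes. By DESeq2 it was 0.125 for Retreg1, 0.157 for mt-Nd1 and 0.256 for Hmgcs1.

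**Figure D2:**
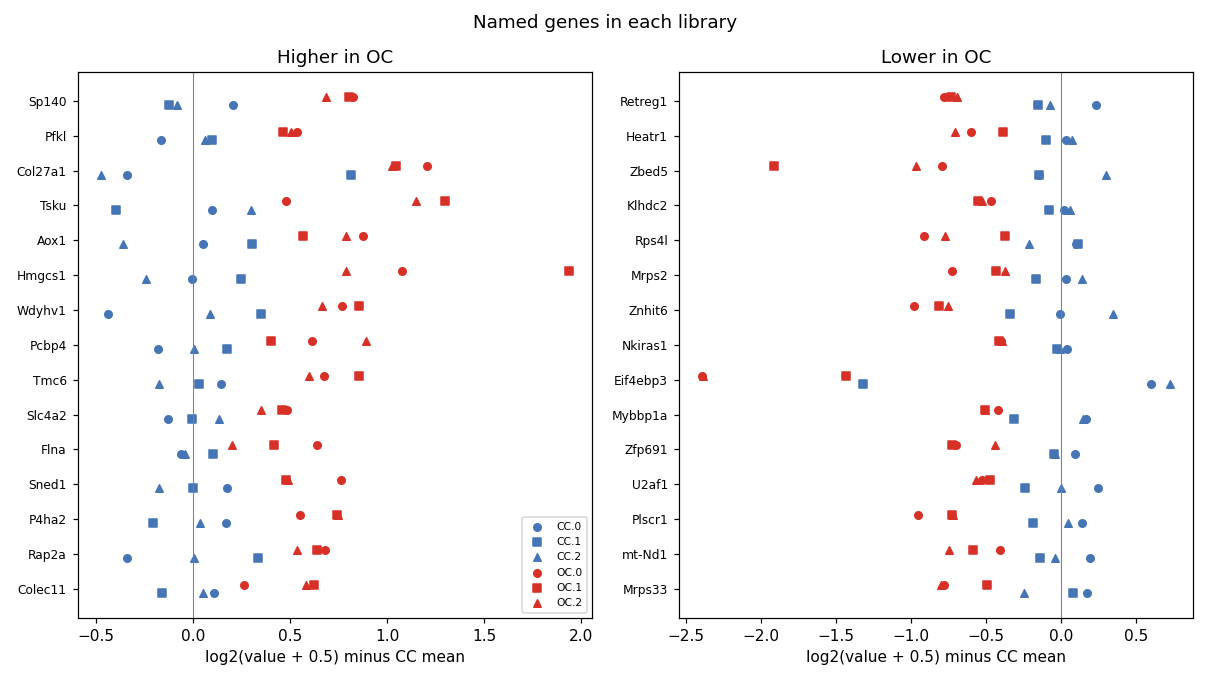
Each point is 1 library, as log2(value + 0.5) minus the CC mean, for the 15 genes of smallest unadjusted p in each direction with groups that do not overlap. Retreg1 is tight within OC and more spread within CC, while CC.1 lies near the OC libraries for Eif4ebp3 and Col27a1.

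Cholesterol synthesis genes had higher values in OC than in CC, with 0 past the test. All 25 measured members had a difference above 0, with a median of 0.66, against 50.7% of all genes above 0. Of the 25, 9 had an unadjusted p under 0.05 and 7 did not overlap between the groups, all higher in OC, beside 2.52% and 5.32% of all genes higher by these measures. Hmgcs1, the enzyme that makes HMG-CoA for the mevalonate pathway, stood at 136, 162 and 115 in the CC libraries and 289, 524 and 236 in the OC libraries. Hmgcs1 is also among the named genes, for which groups without overlap were required. Its difference was 1.27 (SE 0.35, 95% interval 0.50 to 2.03, unadjusted p = 0.0038), a 2.40-fold ratio. Cyp51, lanosterol demethylase, stood at 38.5, 75.4 and 37.5 in the CC libraries and 79.4, 201 and 80.3 in the OC libraries, and OC.0 and OC.2 were only a little above CC.1. Its difference was 1.18 (SE 0.37, unadjusted p = 0.00873). Insig1, the anchor that holds the SREBP complex in the endoplasmic reticulum and is itself an SREBP target, stood at 59.1, 209.8 and 63.6 in the CC libraries and 201, 362 and 196 in the OC libraries. CC.1 lay above both OC.0 and OC.2 for Insig1, so the groups overlapped, and the difference was 1.39 (SE 0.47, unadjusted p = 0.0129). The mean level of the 25 genes relative to CC was -0.19, 0.38, -0.19 in CC and 0.43, 1.55, 0.44 in OC. OC.1 was thus the highest, and CC.1 lay just below OC.0 and OC.2. OC.1 is also the library with the high acute phase transcripts, and without it the list median was 0.35, with 22 of 25 members higher. Without CC.1 it was 0.84, with 24 of 25 members higher. Without both pancreas-high libraries, CC.1 and OC.0, it was 1.02, also with 24 of 25 higher.

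The start regions of 3 of these genes are shown because the promoters of sterol genes are the place where SREBP2 acts, together with the factor NF-Y, which binds CCAAT. RefSeq promoters of build GRCm38.p6 were matched for 17 of the 25 members, taking the 250 bases before the start. Capitals mark the sterol regulatory element TCACNCCAC and the CCAAT box, each searched on both strands, so that ATTGG is a CCAAT on the other strand. The regions are Hmgcs1 at chr13:119690101-119690350, plus strand, Cyp51 at chr5:4104698-4104947, minus strand and Insig1 at chr5:28071162-28071411, plus strand.
Hmgcs1: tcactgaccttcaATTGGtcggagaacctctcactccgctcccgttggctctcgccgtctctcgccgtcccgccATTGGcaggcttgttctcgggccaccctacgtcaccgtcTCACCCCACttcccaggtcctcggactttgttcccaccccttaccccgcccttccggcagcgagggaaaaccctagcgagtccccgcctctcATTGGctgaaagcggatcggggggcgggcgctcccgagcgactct
Cyp51: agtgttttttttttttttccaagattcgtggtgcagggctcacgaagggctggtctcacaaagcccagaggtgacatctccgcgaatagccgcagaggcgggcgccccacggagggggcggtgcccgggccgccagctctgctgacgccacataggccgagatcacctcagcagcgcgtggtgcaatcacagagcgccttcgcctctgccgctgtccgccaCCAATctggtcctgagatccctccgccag
Insig1: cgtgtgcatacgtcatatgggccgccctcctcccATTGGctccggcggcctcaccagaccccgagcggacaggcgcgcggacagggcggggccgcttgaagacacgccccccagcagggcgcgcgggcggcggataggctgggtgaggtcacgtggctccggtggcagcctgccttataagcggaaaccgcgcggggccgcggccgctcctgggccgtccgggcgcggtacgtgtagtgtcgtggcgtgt
A CCAAT box was found in 16 of the 17 matched members, against 37.5% of the 27025 genes in the promoter table. These letters of the sterol regulatory element were found in 1 of the 17, Hmgcs1, against 1.23% of genes in the table. Hmgcs1 held 3 CCAAT matches and Cyp51 and Insig1 held 1 each. These matches are descriptions of the sequence and were not tested against the values.

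Genes of the urea cycle and of amino acid breakdown had lower values in OC, with 0 past the test. Of 25 measured, 23 had a difference below 0, with a median of -0.28. At an unadjusted p under 0.05 there were 7, all lower, and 13 did not overlap between the groups, all lower, beside 2.74% and 6.14% of all genes lower by these measures. Cps1, which feeds ammonia into the cycle, stood at 12532, 8392 and 12334 in the CC libraries and 7468, 6397 and 5323 in the OC libraries, with a difference of -0.78 (SE 0.32, unadjusted p = 0.0297). Cps1 was named after its values were seen. Ass1 and Asl join citrulline to aspartate and split the product. Ass1 stood at 2284, 1432 and 1699 in the CC libraries and 1308, 977 and 879.8 in the OC libraries, and Asl at 1824, 907 and 1554 in the CC libraries and 859, 705 and 691 in the OC libraries, with differences of -0.77 (SE 0.29, unadjusted p = 0.0216) and -0.87 (SE 0.32, unadjusted p = 0.0182). For both genes every OC library lay below every CC library, though CC.1 was the lowest of its group. Arg1, which releases urea, stood at 2912, 1523 and 2156 in the CC libraries and 1376, 1587 and 1205 in the OC libraries, and OC.1 lay above CC.1. Aass, the first enzyme of lysine breakdown, stood at 1477, 532 and 932 in the CC libraries and 482, 419.6 and 447 in the OC libraries, a difference of -1.005 (SE 0.31, 95% interval -1.69 to -0.32, unadjusted p = 0.00749). The mean level of the list was 0.14, -0.15, 0.01 in CC and -0.32, -0.29, -0.40 in OC, so the groups did not overlap in this mean. Leaving out any 1 library gave medians of -0.34 to -0.21. Without both CC.1 and OC.0 the median was -0.35, with 19 of 25 lower.

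Gluconeogenesis genes and periportal markers lay on the same side, with 0 past the test. Of 13 gluconeogenesis genes 12 lay below 0 in OC, at a median of -0.28, 2 at an unadjusted p under 0.05 and 3 with no overlap, all lower, beside the same 2.74% and 6.14%. Got1, aspartate aminotransferase of the cytosol, stood at 472, 310.2 and 465 in the CC libraries and 221, 249.7 and 168 in the OC libraries, with a difference of -0.96 (SE 0.30, 95% interval -1.60 to -0.31, unadjusted p = 0.0075). Slc37a4, the transporter that carries glucose 6-phosphate to its phosphatase, stood at 342, 208 and 311 in the CC libraries and 166, 233 and 156 in the OC libraries, and OC.1 overlapped with CC.1. Sds, serine dehydratase, stood at 149, 151 and 132 in the CC libraries and 114, 117 and 68.8 in the OC libraries. Of 15 periportal markers 13 lay below 0, at a median of -0.34, and 8 of the 15 are also in the urea cycle or gluconeogenesis lists. Hsd17b13, a lipid droplet protein of hepatocytes, stood at 577, 442 and 557 in the CC libraries and 378, 389 and 478 in the OC libraries, and Sdsl, a relative of serine dehydratase, at 35.0, 21.5 and 24.5 in the CC libraries and 18.1, 14.4 and 19.1 in the OC libraries. The pericentral markers had a median of 0.03, with 7 of 14 higher and 7 lower, and -0.04 without OC.1.

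Genes of the respiratory chain had slightly lower values in OC, with 0 past the test. All 33 nuclear genes of oxidative phosphorylation had a difference below 0, with a median of -0.17, 5 at an unadjusted p under 0.05 and 16 with no overlap, all lower, beside 2.74% and 6.14% of all genes. The differences were small, from -0.47 to -0.03. Cycs, cytochrome c, stood at 59.6, 46.2 and 49.6 in the CC libraries and 34.8, 30.7 and 48.0 in the OC libraries, and OC.2 lay between the CC libraries. Atp5o, a subunit of ATP synthase, stood at 145, 136 and 142 in the CC libraries and 109, 117 and 124 in the OC libraries, and Cyc1, a subunit of complex III, at 142, 136 and 141 in the CC libraries and 111, 106 and 123 in the OC libraries. Ndufc1, of complex I, differed by -0.25 (SE 0.10, unadjusted p = 0.0341). The mean level of the list was 0.02, -0.04, 0.01 in CC and -0.28, -0.15, -0.08 in OC, lowest in the library with the most pancreas transcripts, and without OC.0 the median was -0.11, with 28 of 33 lower. The 12 measured mRNAs of the mitochondrial genome, a list written after the values were seen, were all lower as well. Their median was -0.36, 4 had an unadjusted p under 0.05, and 8 did not overlap, beside the same shares of all genes. Their summed value was 37697 to 42063 in CC and 29473 to 32671 in OC, so the sums did not overlap. The mean level of these mRNAs did overlap, at 0.10, -0.05, -0.04 in CC and -0.03, -0.47, -0.58 in OC. In this mean OC.0 lay above CC.1 and CC.2, and the low libraries were OC.1 and OC.2. mt-Nd1, of complex I, stood at 2393, 1898 and 2034 in the CC libraries and 1581, 1399 and 1250.4 in the OC libraries, with a difference of -0.58 (SE 0.16, 95% interval -0.94 to -0.22, unadjusted p = 0.00422). mt-Atp8, mt-Cytb and mt-Atp6 differed by -0.49, -0.47 and -0.44. The median of the mitochondrial list was -0.22 with quantile scaling and -0.58 without OC.0. Mitochondrial ribosomal proteins, also listed after the values were seen, had 58 of 74 members lower and a median of -0.08, and without OC.0 the median was -0.03.

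A list of 53 ribosome biogenesis genes was written after the values of Heatr1, Znhit6 and Mybbp1a were seen, genes that had been chosen for a small p and no overlap, so it serves as a description only. Of 52 measured, 50 had a difference below 0, with a median of -0.24, 14 at an unadjusted p under 0.05 and 17 with no overlap, all lower, beside 2.74% and 6.14% of all genes. Tsr1, a maturation factor of the small subunit, stood at 29.0, 20.9 and 24.05 in the CC libraries and 15.7, 18.4 and 18.8 in the OC libraries. Rsl1d1, a nucleolar protein, stood at 53.9, 45.6 and 52.8 in the CC libraries and 36.5, 37.4 and 42.1 in the OC libraries, and Ncl, nucleolin, at 85.0, 68.1 and 81.1 in the CC libraries and 65.9, 48.2 and 62.5 in the OC libraries. For all 3 genes every OC library lay below every CC library. The level of the list was 0.11, -0.13, 0.02 in CC and -0.29, -0.25, -0.24 in OC, and medians without any 1 library were -0.29 to -0.18. The cytosolic ribosomal proteins themselves had a median of -0.06, with 21 of 26 lower and 0 without overlap, and the median without OC.0 was 0.01.

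**Figure D3:**
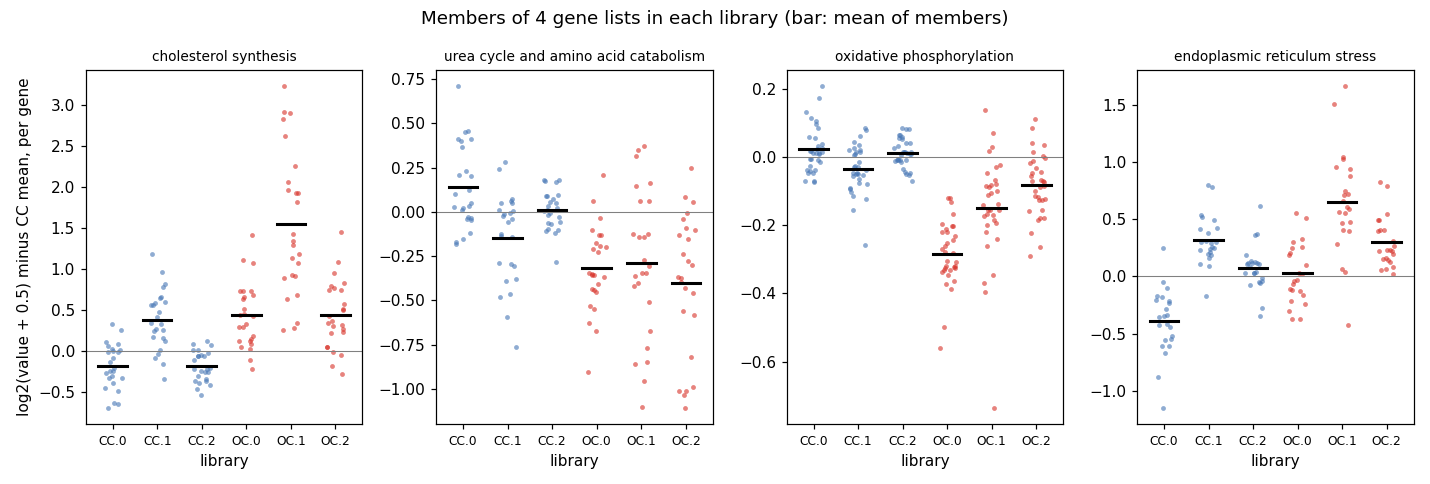
Points are the members of 4 lists in each library, as log2(value + 0.5) minus the gene's CC mean, and bars are the mean of the members. Cholesterol genes were highest in OC.1 (mean 1.55) and CC.1 lay close to OC.0 and OC.2. Endoplasmic reticulum stress genes were lowest in CC.0 (mean -0.39).

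Genes of the endoplasmic reticulum stress response, which senses unfolded protein in the secretory pathway, had 22 of 23 members higher in OC, with a median of 0.29. Of these, 3 had an unadjusted p under 0.05, beside 2.52% of all genes, and 1 of 23 did not overlap, a share no higher than the 5.32% of all genes. Ern1, the sensor IRE1, stood at 54.7, 49.0 and 35.9 in the CC libraries and 65.7, 56.0 and 64.9 in the OC libraries, a difference of 0.43 (SE 0.16, 95% interval 0.07 to 0.79, unadjusted p = 0.0225). Eif2ak3, the sensor PERK, stood at 18.5, 26.0 and 16.3 in the CC libraries and 23.7, 29.7 and 26.4 in the OC libraries, and Ddit3, the transcription factor CHOP, at 3.33, 4.11 and 7.46 in the CC libraries and 7.17, 6.69 and 8.51 in the OC libraries. Herpud1, of the degradation complex, stood at 334, 452 and 359 in the CC libraries and 432, 695 and 670.3 in the OC libraries. The level of the list was -0.39, 0.32, 0.07 in CC and 0.03, 0.65, 0.30 in OC, so CC.0 was the low library and CC.1 lay above OC.0 and OC.2. Without CC.0 the median was 0.09, without OC.0 it was 0.46, and without both CC.1 and OC.0 it was 0.57. The endoplasmic reticulum stress element, CCAAT and CCACG with any 9 bases between them, was found on either strand in 7 of the 20 promoters matched, against 0.13% of genes in the table. It overlaps with the CCAAT box, which NF-Y binds, and ATF6 reads its other end. The promoter of Canx, the chaperone calnexin, is shown as the member with this element and the smallest p (chr11:50325674-50325923, minus strand), with the element in capitals.
Canx: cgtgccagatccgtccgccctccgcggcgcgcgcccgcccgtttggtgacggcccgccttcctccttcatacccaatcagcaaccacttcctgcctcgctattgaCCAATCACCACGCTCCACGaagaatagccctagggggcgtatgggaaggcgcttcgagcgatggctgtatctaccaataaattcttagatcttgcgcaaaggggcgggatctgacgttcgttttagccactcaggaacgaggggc
Canx differed by 0.22 with an unadjusted p of 0.179.

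Acute phase genes had 22 of 24 members higher in OC and a median of 0.33, and this rested on 1 library. The levels were 0.00, 0.05, -0.05 in CC and 0.16, 2.16, -0.29 in OC, and without OC.1 the median was -0.09. Saa4, a serum amyloid made constitutively, stood at 57.5, 93.9 and 69.8 in the CC libraries and 97.5, 199 and 90.3 in the OC libraries, and Stat3, which carries the signal of interleukin 6, at 113, 105 and 87.5 in the CC libraries and 117, 151 and 103 in the OC libraries. Complement and coagulation genes had a median of 0.08 and -0.10 without OC.1. Interferon-stimulated genes had 20 higher and 4 lower of 24, median 0.20, and 0 had an unadjusted p under 0.05. The median was 0.07 without CC.0, 0.37 without CC.1 and 0.52 without both CC.1 and OC.0. Macrophage and Kupffer cell markers had 17 higher and 1 lower of 18, median 0.17. Their median was 0.03 without CC.0 and 0.28 without OC.2. Stellate cell and matrix genes had 16 higher and 1 lower of 17, median 0.23, with 0.10 without OC.1 and 0.29 without OC.0. Col6a1, a collagen of the pericellular matrix, stood at 8.24, 6.92 and 8.98 in the CC libraries and 9.87, 14.3 and 10.9 in the OC libraries, and the fibrillar collagen gene Col5a2 at 3.01, 5.42 and 5.53 in the CC libraries and 5.29, 9.12 and 8.22 in the OC libraries. Col3a1, a fibrillar collagen of scar tissue, stood at 17.4, 33.7 and 24.6 in the CC libraries and 29.4, 77.4 and 39.5 in the OC libraries, highest in OC.1. Sinusoidal endothelium had 10 higher and 2 lower of 12, median 0.09.

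The lipid lists had members on both sides of 0. Fatty acid and triglyceride synthesis had 10 higher and 11 lower of 21, median -0.0016. Mlxipl, the carbohydrate-sensing factor ChREBP, stood at 76.7, 105 and 79.3 in the CC libraries and 127, 103 and 144 in the OC libraries, and CC.1 lay above OC.1. Dgat1, which completes triglycerides, stood at 29.6, 26.4 and 37.7 in the CC libraries and 24.3, 21.7 and 23.6 in the OC libraries, with every OC library below every CC library and a difference of -0.41 (SE 0.14, unadjusted p = 0.0148). Fatty acid oxidation and ketogenesis had 4 higher and 21 lower of 25, median -0.14. Cyp4a10, a PPARalpha target of a family of near-identical genes, stood at 2417, 1342 and 3421 in the CC libraries and 1102, 909.7 and 1932 in the OC libraries, and Cpt1a, the gate of mitochondrial fatty acid entry, at 971, 804 and 1153 in the CC libraries and 671, 666 and 890.2 in the OC libraries. Without OC.1 the median of that list was -0.02. Lipid droplet and lipolysis genes had 7 higher and 8 lower of 15, median -0.08. Pnpla2, adipose triglyceride lipase, stood at 102, 55.9 and 89.4 in the CC libraries and 50.2, 41.1 and 59.9 in the OC libraries, with a difference of -0.68 (SE 0.21, unadjusted p = 0.00735), and OC.2 lay above CC.1. G0s2, the inhibitor of that lipase, stood at 119.7, 168 and 72.8 in the CC libraries and 269, 83.0 and 311 in the OC libraries, and Cideb, a droplet protein of lipoprotein assembly, at 101, 94.8 and 104 in the CC libraries and 74.5, 86.8 and 91.0 in the OC libraries. Cidec, which fuses droplets, stood at 75.0, 7.48 and 73.8 in the CC libraries and 8.58, 4.41 and 29.5 in the OC libraries, with CC.1 below OC.0 and OC.2. Apolipoproteins had 4 higher and 12 lower of 16, median -0.06, and Apoa5, a regulator of plasma triglycerides, stood at 1859, 1934 and 2101 in the CC libraries and 1555, 1589.9 and 1752 in the OC libraries.

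The other metabolic lists had medians near 0, and their members of smallest p are given as examples. Hamp, hepcidin, the liver hormone that limits iron export, stood at 416, 466 and 455 in the CC libraries and 289, 306 and 279 in the OC libraries. All OC libraries lay below all CC libraries, and the fitted difference was -0.61 (SE 0.35, 95% interval -1.37 to 0.14, unadjusted p = 0.103), in a fit whose spread is shared over all 4 groups. Slc11a2, the iron importer DMT1, stood at 33.8, 32.2 and 35.8 in the CC libraries and 46.2, 45.5 and 36.4 in the OC libraries, and the iron list had 12 higher and 5 lower of 17, median 0.09, and -0.02 without OC.1. Grb14, an adaptor that dampens the insulin receptor, stood at 78.1, 57.0 and 59.7 in the CC libraries and 48.9, 51.2 and 49.9 in the OC libraries, and the insulin and glycogen list had 11 higher and 7 lower of 18, median 0.02. Bcl6, a repressor in the growth hormone pathway, stood at 12.0, 7.11 and 11.6 in the CC libraries and 14.2, 34.7 and 40.8 in the OC libraries, with a difference of 1.40 (SE 0.59, unadjusted p = 0.0356), and its list had 9 higher and 7 lower of 16, median 0.10, and -0.02 without OC.1. Cry2, a repressor of the circadian clock, stood at 26.3, 28.6 and 30.0 in the CC libraries and 24.4, 23.3 and 20.6 in the OC libraries, and the clock list had 9 higher and 10 lower of 19, median -0.00799, and 0.07 without OC.0. Slc10a1, the bile acid importer, differed by -0.28 (SE 0.14, unadjusted p = 0.0605) and Abcb11, the bile salt exporter, by 0.34 (SE 0.19, unadjusted p = 0.106), in a list with 7 higher and 14 lower of 21, median -0.08. Ephx1, an epoxide hydrolase, differed by 0.39 (SE 0.18, unadjusted p = 0.0539), and xenobiotic genes had 8 higher and 18 lower of 26, median -0.07, and 0.03 without OC.1. Gclc, which starts glutathione synthesis, differed by 0.61 (SE 0.28, unadjusted p = 0.0499), and antioxidant genes had 14 higher and 4 lower of 18, median 0.07. Mest, an imprinted gene, stood at 0.476, 1.68 and 1.11 in the CC libraries and 3.41, 2.89 and 1.47 in the OC libraries, values near the worth of a few reads, and imprinted genes had 8 higher and 3 lower of 11, median 0.09. Chromatin and DNA methylation genes had 14 higher and 7 lower of 21, median 0.00494.

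The lists left had few members, or medians that followed single libraries. Heat shock and immediate early genes had 11 higher and 6 lower of 17, median 0.10, and the median was -0.06 without CC.2 and 0.41 without CC.1. Genes with higher expression in male than in female liver had 6 higher and 10 lower of 16, median -0.10, and 0.05 without CC.1. Those with higher expression in females had 4 higher and 2 lower of 6, median 0.30, and -0.22 without OC.2. Cell cycle genes had 6 higher and 6 lower of 12, median -0.04, and 0.06 without OC.0. Cholangiocyte markers had 3 higher and 3 lower of 6, median -0.08, and 0.04 without OC.2. Erythroid markers had 2 higher and 4 lower of 6, median -0.10, and 0.11 without OC.0. Adipocyte markers had 4 higher and 1 lower of 5, median 0.56, with a summed value of 274 to 939 in CC and 608 to 846 in OC. Lymphocyte markers had 3 higher and 0 lower of 3, median 0.63, and 0.12 without OC.0. Their sums were low, with 6.02 to 12.2 in CC and 5.47 to 26.7 in OC. Neutrophil markers had 3 higher and 1 lower of 4, median 0.42, with sums of 6.08 to 11.8 in CC and 8.66 to 243 in OC and the highest in OC.1. Skeletal muscle markers had 6 higher and 3 lower of 9, median 0.12, and the median ran from -0.51 to 1.34 with 1 library left out.

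**Figure D4:**
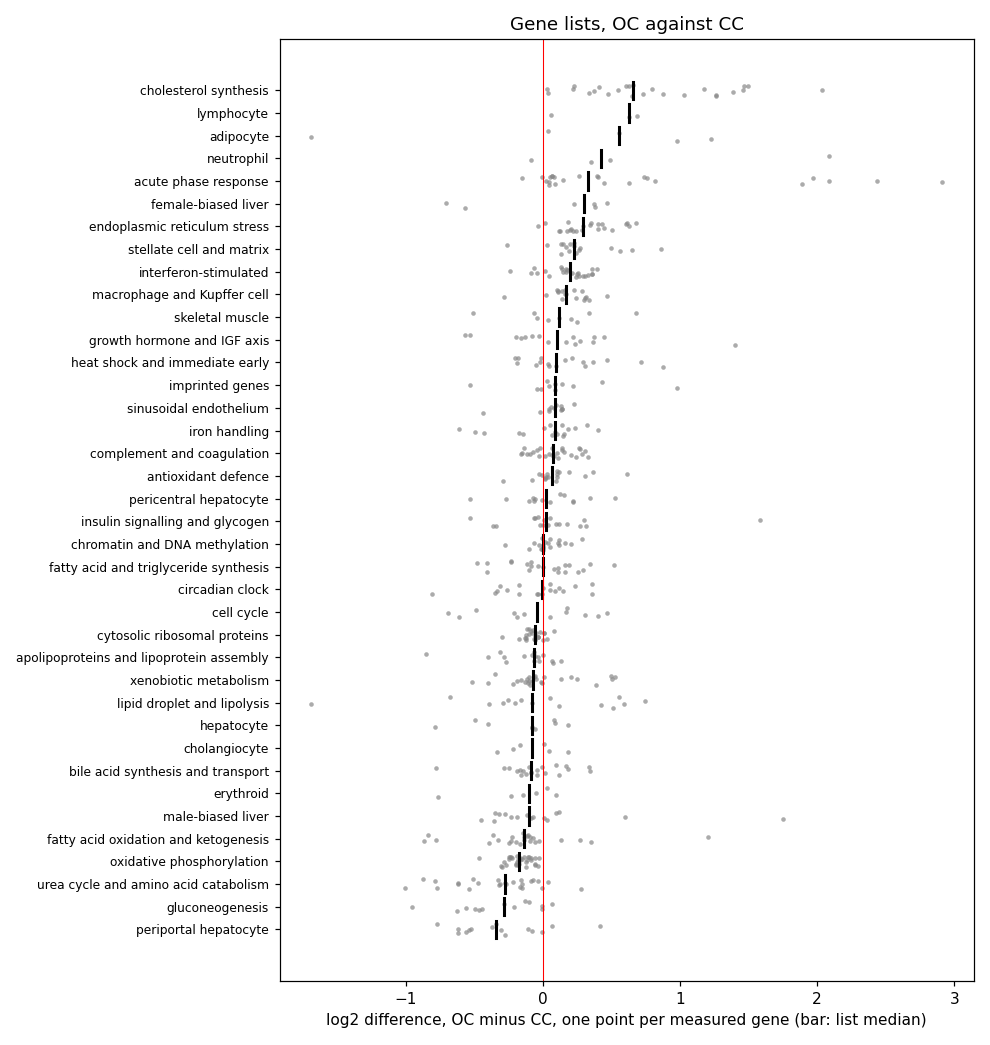
Each point is a measured gene, placed by its log2 difference OC minus CC, and the bar is the list median. Pancreas markers (median 2.36) and the 3 lists written after the values were seen are left out. Of the lists drawn, cholesterol synthesis had the highest median and the periportal list (-0.34) the lowest.

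The same contrast of dam diet was taken in offspring on the obesogenic diet as OO minus CO, which shares no library with OC minus CC. There 5 of 12086 genes (0.0414%) were called, of which 4 are listed at 0 in a group. The difference between the contrasts was called for 4 genes (0.0331%), and all 4 are listed at 0 in OO. At an unadjusted p under 0.05 for the difference there were 551 genes (4.56%). For the cholesterol genes the median was 0.66 in OC minus CC and 0.18 in OO minus CO, and 0 of 25 had an unadjusted p under 0.05 for the difference. For the urea cycle list the medians were -0.28 and 0.01, and 3 of 25 had such a p. For oxidative phosphorylation they were -0.17 and 0.08, with 2 of 33. OO minus CO rests on 2 CO libraries that lay apart. For the urea cycle list the mean level over CC was -0.40 in CO.0 and -0.85 in CO.1. For oxidative phosphorylation it was -0.12 and -0.43. A median near 0 in OO minus CO thus does not show that a difference is absent there. The ribosome biogenesis list gave -0.24 and -0.18, with 0 of 52, and endoplasmic reticulum stress 0.29 and -0.20, with 2 of 23. The medians lay farthest apart for the acute phase, neutrophil and pancreas lists. Acute phase genes had medians of 0.33 and -0.95, with 7 of 24 at such a p, and their mean level over CC was high in OC.1 (2.16) and CO.1 (2.93). Neutrophil markers had 0.42 and -1.55, with 3 of 4, and a level of 3.85 in CO.1. Pancreas markers had 2.36 and -3.45, with 0 of 16, and a level of 6.13 in CO.1 against 0.88 in CO.0. Periportal markers had -0.34 and 0.19, with 4 of 15. In each of these lists 0 members were called for the difference. Of the 15 named genes higher in OC, 12 had an OO minus CO above 0, and of the 15 lower, 12 were below 0. The share of all genes with the same sign was not taken, so these counts do not measure agreement between the weaning diets. The smallest limma adjusted p of OO minus CO among these genes was 0.759. Eif4ebp3 lay below 0 under both weaning diets (-2.07 and -1.70), as did Plscr1 (-0.80 and -0.85). P4ha2 stood apart with 0.68 and -0.77, and the difference had an unadjusted p of 0.000474 and a limma adjusted p of 0.877. Zbed5 had -1.23 and 0.28, and mt-Nd1 had -0.58 and 0.08. With the genes that a whole group has at 0 left untested, limma called 0 genes for the difference, with 547 at an unadjusted p under 0.05.

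**Figure D5:**
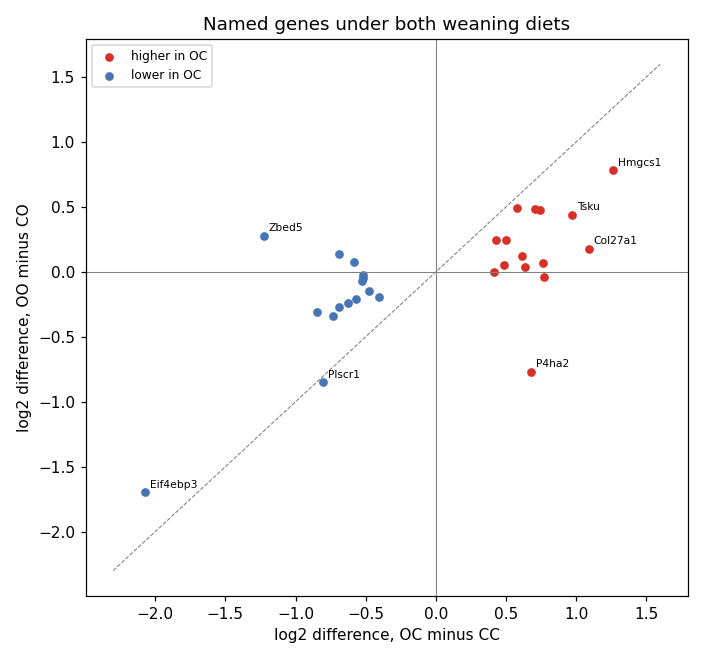
Each point is 1 of the 30 named genes, with its log2 difference OC minus CC across and OO minus CO upward, and the dashed line marks equal values. The genes were chosen by OC minus CC alone. Eif4ebp3 (-1.70) and Plscr1 (-0.85) lie farthest from 0 in OO minus CO, both below it, and P4ha2 (-0.77) lies on opposite sides of 0 in the contrasts.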

How the data were processed

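Liver RNA was sequenced from TruSeq libraries, per the labels' protocols. The authors deposited a signal per gene, which the values show to be estimated counts divided by 1 factor per library, with 96.7% to 97.2% of CC and OC values whole multiples of 1 read (tolerance 0.01). Alignment used Bowtie 1.2.3 and mm8, per the submitters' processing notes. The counter, annotation, strand setting and scaling were not given in the sources used here, so near-identical or overlapping genes are uncertain. Columns named a group and not a labelled sample, and 11 were found for 12 labels. Symbols were matched for 11965 of 12086 genes. A CPM table had been assumed, and the planned test on the log scale was kept.

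The test was limma 3.58.1 (R 4.3.3) with its trend option, on log2(value + 0.5). All 11 libraries entered it, each group with its own mean (7 residual and 4.66 prior degrees of freedom) and adjusted over all genes by Benjamini-Hochberg at 0.05. Genes had to reach 1 in 3 libraries, which all did. Fold changes of low genes are understated. The named genes were the 15 of smallest p in each direction with groups that do not overlap and whose higher group averaged 5 or more, since 0 were called, leaving out unnamed, Gm and Rik genes. Up to 4 members of smallest p served as examples of each of 39 lists. A few of these examples are not reported here. The members and lists were chosen with earlier results of these data known, and 3 lists were added after the values were seen. Alternatives were edgeR 4.0.16 and DESeq2 1.42.0 and voom on recovered reads, other pseudocounts (0.1 and 2), minimums, scalings and variance models, and libraries left out. The fit was tested on simulated data. Intervals cover 95%, and the floor is 3 reads for counting error only.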

Additional observations from a re-analysis of the deposited data

Results flagged for a closer look

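The effect of the dam's diet differed between the weaning diets, by limma's test of the difference, for 4 genes, each listed at 0 in every OO library. The adjusted p was 1.36e-12 for Serpina1b, 2.89e-11 for Serpina1d, 6.94e-08 for Gm24105 and 0.00198 for Gm8893. Serpina1b and Serpina1d are members of a family of near-identical alpha-1 antitrypsin genes. An exact 0 in abundant genes can be a failed estimate, and with the 6 such genes of any group left untested, 0 genes are called by limma in this test (547 at an unadjusted p under 0.05, smallest adjusted p = 0.42). None of the 6 is listed at 0 in all CC or all OC libraries.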

How the results depend on the processing

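No paired analysis was possible. The labelled samples carry replicate numbers within each group, but no column was tied to a labelled sample. The 0 to 2 in the column names are indices whose meaning is not stated. Nothing in the labels ties a number in one group to the same number in another. The count of genes called in OC against CC stayed at 0 under every alternative except leaving out CC.1, which gave 2 (range 0 to 2 over the libraries left out). In OO against CO the 5 calls ranged from 4 to 20 with 1 library left out, with 20 without CO.0, which leaves 1 CO library that is assumed to vary like the other groups, and became 0 when genes listed at 0 in a whole group were not tested. The 4 calls for the difference ranged from 4 to 5 with 1 library left out and also became 0 in that setting. Saa1 and Saa2 reversed to -0.89 and -0.86 without OC.0 and OC.1, an alternative chosen after seeing the data, as was not testing genes listed at 0. Of the list medians recomputed under the alternatives, 791 moved by less than the SD of the CC libraries and 91 by more. Some alternatives cannot move a median, and they are counted among the 791. These are no minimum value, robust variance, a threshold of 0.1 and only the CC and OC libraries. The SD is also wide for lists that vary within CC, such as pancreas, whose median ran from 0.11 to 4.30 with 1 library left out. The 791 is thus not a measure of stability. Of the recomputed values of named and example genes, 1738 kept their direction and their side of the threshold, and 1, Col27a1 without CC.1, passed it. The 1738 also include alternatives that cannot change a direction. With 3 libraries in each group and at most 7969056 reads each, small differences and low genes are beyond this comparison.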
